A study of Mus musculus with 16 samples.

Results

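The subject is a set of 35 mouse genes of the heat shock response and of cytosolic and mitochondrial protein folding. They were picked from the gene table by symbol, a rule that uses no measured value. The list itself was drawn up with earlier results of these data known. All 35 were found among the 27179 rows of the gene table, and all 35 had a normalized count of at least 10 in at least 4 libraries, as did 14005 genes in all. The cells were stromal cells carrying PDGFRb, sorted by flow cytometry from inguinal white fat of C57BL/6 mice, divided into DPP4_pos and DPP4_neg adipose progenitors (APCs) and cultured in medium with 10% serum. DPP4 is a surface peptidase of interstitial fat progenitors. The 4 groups had 4 libraries each: DPP4_pos APCs given isoproterenol, DPP4_pos APCs given PBS vehicle, DPP4_neg APCs given isoproterenol and DPP4_neg APCs given PBS vehicle. Isoproterenol is an agonist of beta-adrenergic receptors, and both agents were given for 4 h. The labels write its dose as 10 mM, far above what is usual for cultured cells, and whether the unit is right could not be settled here. All groups share the sort, the culture and the serum, so none shows the genes as they are in fat tissue, and the labels give no age. Nothing in them tells whether the 4 libraries of a group stem from different dishes or mice, so every p-value below rests on the spread between libraries alone, and that spread may be technical.

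Reads in genes came to 9823799 to 16563940 per library in DPP4_pos isoproterenol, 17189166 to 20425332 in DPP4_pos vehicle, 10191846 to 22121496 in DPP4_neg isoproterenol and 16479650 to 28627223 in DPP4_neg vehicle. Dpp4 itself averaged 2223 ± 97.7 normalized counts in DPP4_pos isoproterenol and 3053 ± 186 in DPP4_pos vehicle libraries, against 9.89 ± 2.29 in DPP4_neg isoproterenol and 21.1 ± 4.16 in DPP4_neg vehicle libraries (mean ± SD, n = 4). Pdgfrb, the gene behind the sort, averaged 2105, 7562, 9028 and 11315 normalized counts in the same order. The libraries were bulk samples, so fewer cells of a type and less RNA per cell cannot be told apart.

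Chaperones hold unfolded proteins and help them fold. HSP70 proteins cycle on their clients with the help of J-domain partners and of HSP110 proteins that exchange their nucleotide, HSP90 finishes kinases and receptors, small heat shock proteins keep unfolding proteins from clumping, and ring-shaped chaperonins enclose their clients. The transcription factor HSF1, held inactive in unstressed cells, forms trimers under stress and binds heat shock elements, which are inverted repeats of GAA in front of chaperone genes. In fat, HSF1 has been linked to the thermogenic programme of brown and beige adipocytes.

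Of the 35 genes, 30 rose with isoproterenol in DPP4_pos APCs and 3 fell, by limma at an adjusted p under 0.05 over all genes tested. Of the 14005 genes tested, 39.4% rose and 43.3% fell in this comparison. The median log2 difference, isoproterenol minus vehicle, was 0.97 over the 35 genes and −0.05 over all genes tested. In DPP4_neg APCs 23 of the 35 rose and 7 fell, where 32.1% of all genes rose and 33.6% fell. The median there was 0.17 over the 35 genes and −0.02 over all. Taken with its sign, the response was higher in DPP4_pos than in DPP4_neg APCs for 30 of the 35 and lower for 1, Cryab. Of all genes, 31.6% had a higher and 31% a lower signed response in DPP4_pos APCs. A higher value is not always a larger change. Hspa1b had −1.76 in DPP4_neg and 0.08 in DPP4_pos APCs, and Cryab fell more in DPP4_pos APCs. With isoproterenol and vehicle libraries not overlapping, 30 of the 35 lay higher and 3 lower in DPP4_pos APCs (37.5% and 40.4% of all genes), and 20 lay higher and 7 lower in DPP4_neg APCs (28.2% and 30.6%). Rises of 2-fold or more were seen for 14 of the 35 in DPP4_pos APCs (11.5% of all genes) and for 2 of the 35, Hsph1 and Bag3, in DPP4_neg APCs (6.27% of all genes). The normalized counts summed to 18373884 to 18618379 per DPP4_pos isoproterenol library and to less in the other groups, as low as 15178960 in DPP4_pos vehicle. With each library scaled to the same total instead, an alternative added after seeing the data, 28 of the 35 rose and 5 fell in DPP4_pos APCs, where 27.6% of all genes rose and 56% fell. On that scale the signed response was higher in DPP4_pos APCs for 27 of the 35 and lower for 3. Of all genes, 18.3% had a higher and 48.8% a lower value.

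**Figure D1:**
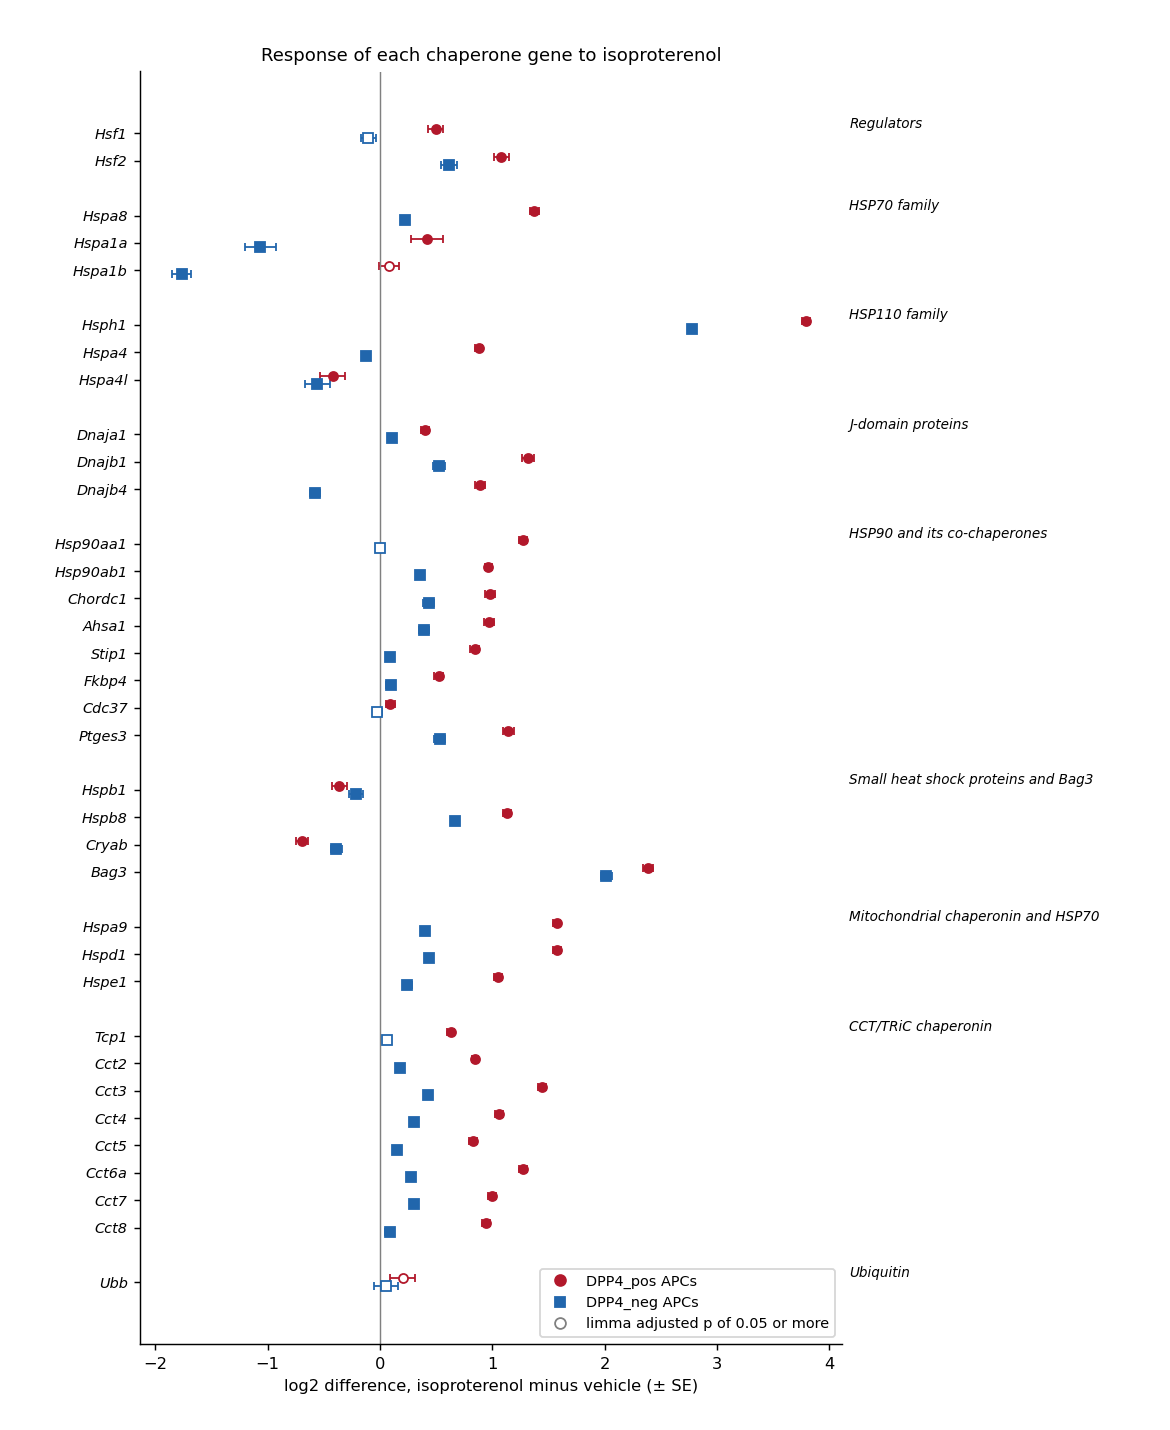
Log2 difference between isoproterenol and vehicle for each of the 35 genes (x axis), one row per gene, in DPP4_pos APCs (circles) and DPP4_neg APCs (squares), with bars of 1 SE from limma and open symbols where the adjusted p was 0.05 or more. Hsph1 stands furthest right in both populations, at 3.80 in DPP4_pos and 2.78 in DPP4_neg APCs, and Hspa1b furthest left in DPP4_neg APCs, at −1.76.

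Promoter windows of 5 genes are shown. Hsph1 and Bag3 had the largest rises of the 35, Hspe1 shares its promoter region with Hspd1, Chordc1 has a dense run of heat shock elements, and Hspa1b was the gene of the set that fell most in DPP4_neg APCs. Each holds 250 bases before to 50 after a gene start, taken from RefSeq on GRCm38.p6 and written 5′ to 3′ on the strand of the gene. Capitals mark GAANNTTC or TTCNNGAA, a pair of inverted heat shock units that reads the same on both strands, so overlapping matches run together.
Hsph1, chr5:149636287-149636586, minus strand: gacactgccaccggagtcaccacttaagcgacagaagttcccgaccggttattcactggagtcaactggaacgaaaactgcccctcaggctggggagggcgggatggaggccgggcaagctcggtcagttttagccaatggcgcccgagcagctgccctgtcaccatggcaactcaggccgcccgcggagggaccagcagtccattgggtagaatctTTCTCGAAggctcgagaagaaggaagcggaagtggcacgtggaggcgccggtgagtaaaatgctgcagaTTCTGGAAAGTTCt
Bag3, chr7:128523333-128523632, plus strand: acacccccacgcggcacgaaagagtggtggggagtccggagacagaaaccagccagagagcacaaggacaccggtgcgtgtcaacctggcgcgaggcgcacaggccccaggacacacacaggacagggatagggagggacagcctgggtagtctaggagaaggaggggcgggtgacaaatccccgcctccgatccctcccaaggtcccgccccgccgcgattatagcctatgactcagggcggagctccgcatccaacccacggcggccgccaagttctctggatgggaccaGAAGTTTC
Hspe1, chr1:55087898-55088197, plus strand: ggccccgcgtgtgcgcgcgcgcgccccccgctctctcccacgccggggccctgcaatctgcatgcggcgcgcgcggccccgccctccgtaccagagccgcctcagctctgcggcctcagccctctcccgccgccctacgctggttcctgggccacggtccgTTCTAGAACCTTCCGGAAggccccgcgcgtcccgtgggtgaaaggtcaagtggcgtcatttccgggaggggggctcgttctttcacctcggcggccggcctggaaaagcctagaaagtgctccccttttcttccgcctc
Chordc1, chr9:18292017-18292316, plus strand: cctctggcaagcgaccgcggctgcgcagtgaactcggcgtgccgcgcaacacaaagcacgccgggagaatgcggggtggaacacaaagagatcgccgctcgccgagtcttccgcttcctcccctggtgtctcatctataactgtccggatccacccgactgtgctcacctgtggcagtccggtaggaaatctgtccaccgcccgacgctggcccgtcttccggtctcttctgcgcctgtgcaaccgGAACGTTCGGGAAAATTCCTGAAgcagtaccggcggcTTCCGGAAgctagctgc
Hspa1b, chr17:34959189-34959488, minus strand: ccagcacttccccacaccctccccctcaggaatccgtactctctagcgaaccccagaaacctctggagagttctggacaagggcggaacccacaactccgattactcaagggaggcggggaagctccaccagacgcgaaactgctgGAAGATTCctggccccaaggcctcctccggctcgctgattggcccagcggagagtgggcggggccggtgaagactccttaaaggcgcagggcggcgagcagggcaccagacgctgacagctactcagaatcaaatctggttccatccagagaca
The table of windows held 28 of the 35 genes. Of these 28, 16 had GAANNTTC or TTCNNGAA in at least 1 window (57.14%), against 16.97% of the 27025 genes with a window. The pair extended by another inverted unit at the same spacing, which gives 3 units in a row, was found on either strand for Hsph1, Chordc1, Hspd1 and Hspe1, which is 14.29% of the 28, against 0.6623% of all genes with a window. Hspd1 and Hspe1 lie head to head. The Hspd1 window at its outermost start (chr1:55088194-55088493) held no pair. Another Hspd1 window, at a start further inside the gene (chr1:55087883-55088182), overlaps most of the Hspe1 window. Through that window the same run of elements counts for both genes. The run begins 89 bases before the start of Hspe1. In the Hsph1 window shown, the 3 units begin 36 bases after the start it uses. In another Hsph1 window (chr5:149636266-149636565) they begin 15 bases after the start. Both of these starts lie inside the Hsph1 gene span, which reaches 149636498 on this minus-strand gene. In the Bag3 window the pair begins 42 bases after the start. The windows of Hspa1a and Hspa1b differed at 4 of 300 positions, and in both the pair begins 104 bases before the start. The cAMP response element TGACGTCA was in none of the 28, against 2.031% of all genes with a window. That share is too small for its absence among 28 genes to show a lack. A match describes letters in a window and not binding.

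The 2 heat shock transcription factors were measured at moderate levels. Hsf1 (chromosome 15, 76477362 to 76501155), the main regulator, had 754, 747, 669 and 770.4 normalized counts in DPP4_pos isoproterenol libraries, against 527, 493, 515 and 545 in DPP4_pos vehicle libraries. In DPP4_neg APCs Hsf1 had 533, 549.9, 445 and 580.2 under isoproterenol, against 586, 553, 544 and 574 under vehicle. Every DPP4_pos isoproterenol library was above every other library, while the DPP4_neg groups overlapped. Hsf1 rose 1.41-fold in DPP4_pos APCs (log2 difference 0.50 ± 0.07, SE, adjusted p = 4.83e-07), and its difference in DPP4_neg APCs was −0.10 ± 0.07 (adjusted p = 0.171). Hsf2 (chromosome 10, 57483766 to 57513143), a related factor that can pair with HSF1 on DNA, had 742, 799.7, 894 and 719.7 normalized counts in DPP4_pos isoproterenol and 396, 363, 363 and 362 in DPP4_pos vehicle libraries. It had 422, 404, 456 and 399 in DPP4_neg isoproterenol and 252, 286, 296 and 263 in DPP4_neg vehicle libraries. The treated libraries lay above the vehicle libraries in both populations. The log2 difference was 1.08 ± 0.07 in DPP4_pos APCs (adjusted p = 2.73e-12) and 0.61 ± 0.07 in DPP4_neg APCs (adjusted p = 7.48e-08). Hsf2 was also higher in DPP4_pos than in DPP4_neg APCs under each agent, by 0.90 ± 0.07 with isoproterenol and 0.44 ± 0.07 with vehicle on the log2 scale. Its responses differed by 0.47 ± 0.10, and with total-count scaling by 0.21, which did not pass.

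The HSP110 family exchanges the nucleotide of HSP70, and its members moved apart. Hsph1 (chromosome 5, 149616843 to 149636498), the stress-inducible member, had 23367, 23977, 24985 and 24006 normalized counts in DPP4_pos isoproterenol libraries, against 1814, 1629, 1744 and 1734 in DPP4_pos vehicle libraries. In DPP4_neg APCs Hsph1 had 11320.5, 11404, 11717 and 11310.4 under isoproterenol, against 1629, 1653, 1628 and 1759.9 under vehicle. The vehicle libraries of both populations lay at like levels, and all treated libraries were far above them. Hsph1 rose 13.9-fold in DPP4_pos APCs (log2 difference 3.80 ± 0.04, adjusted p = 9.05e-27) and 6.86-fold in DPP4_neg APCs (2.78 ± 0.04, adjusted p = 4.49e-24). Among the 14005 genes ordered by rise, it stood at place 156 in DPP4_pos and 182 in DPP4_neg APCs. By level, taken as normalized counts not divided by exon length, it stood at place 72 in DPP4_pos isoproterenol libraries. Hspa4, the member found in most cells without stress, averaged 8417 ± 249.7 normalized counts in DPP4_pos isoproterenol and 4573 ± 112 in DPP4_pos vehicle libraries, against 6165 ± 186 in DPP4_neg isoproterenol and 6714 ± 34.7 in DPP4_neg vehicle libraries (SD, n = 4). It rose in DPP4_pos APCs by 0.88 ± 0.03 and fell in DPP4_neg APCs, with a log2 difference of −0.12 ± 0.03 (adjusted p = 0.00153). Hspa4l (chromosome 3, 40744500 to 40796103), their close relative, had 135, 162, 130.1 and 156 normalized counts in DPP4_pos isoproterenol and 164, 226, 204 and 189 in DPP4_pos vehicle libraries. It had 216, 153, 221 and 215 in DPP4_neg isoproterenol and 285, 299.9, 282 and 311 in DPP4_neg vehicle libraries. It fell in both populations, with log2 differences of −0.42 ± 0.11 in DPP4_pos and −0.56 ± 0.11 in DPP4_neg APCs. After quantile normalization the difference of Hspa4l in DPP4_pos APCs was −0.11 and no longer passed the test.

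Within the HSP70 family the constitutive gene and the inducible pair behaved differently. Hspa8 (chromosome 9, 40801276 to 40805202), which makes the constitutive HSC70, had 19952, 20308, 19813 and 20477 normalized counts in DPP4_pos isoproterenol libraries, against 8186, 7689, 7531 and 7691 in DPP4_pos vehicle libraries. In DPP4_neg APCs Hspa8 had 11513, 12161, 10466 and 11482 under isoproterenol, against 10025, 9659, 9445 and 9926 under vehicle. Every treated library was above every vehicle library. Hspa8 rose 2.59-fold in DPP4_pos APCs and 1.17-fold in DPP4_neg APCs (log2 differences 1.37 ± 0.04 and 0.22 ± 0.04, adjusted p = 1.95e-18 and 4.07e-05). Hspa1a (chromosome 17, 34969359 to 34972156), an intronless gene of inducible HSP70, had 169, 225, 281 and 159.7 normalized counts in DPP4_pos isoproterenol and 176, 142, 156 and 136 in DPP4_pos vehicle libraries. It had 115, 104, 88.3 and 94.5 in DPP4_neg isoproterenol and 233, 181, 208 and 223 in DPP4_neg vehicle libraries. Treated and vehicle libraries of DPP4_pos APCs overlapped, and those of DPP4_neg APCs did not. Hspa1b (chromosome 17, 34956429 to 34959238), its neighbour and near copy, had 467, 512, 661 and 499.8 in DPP4_pos isoproterenol and 573, 466, 482 and 492 in DPP4_pos vehicle libraries. It had 335, 327, 284 and 302 in DPP4_neg isoproterenol and 1069, 997, 1060.1 and 1119 in DPP4_neg vehicle libraries. Every DPP4_neg vehicle library of Hspa1b was above all other libraries, and every DPP4_neg isoproterenol library was below all other libraries.

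Hspa1b was 3.4-fold lower with isoproterenol in DPP4_neg APCs (log2 difference −1.76 ± 0.09, adjusted p = 5.16e-14), and Hspa1a 2.09-fold lower (−1.06 ± 0.14, adjusted p = 9.36e-07). In DPP4_pos APCs the log2 difference was 0.08 ± 0.09 for Hspa1b (adjusted p = 0.388), which total-count scaling turned to −0.19 and a fall (adjusted p = 0.0386), and 0.42 ± 0.14 for Hspa1a (adjusted p = 0.00983). The Hspa1a rise in DPP4_pos APCs did not pass without isoproterenol replicate 3 (0.26, adjusted p = 0.0617), with upper-quartile scaling (0.23) or with total-count scaling (0.15). Of the 50-base words in their transcripts, 60.3% in Hspa1a and 62.3% in Hspa1b also occur elsewhere, mainly in the other copy, so the split of reads between them is uncertain. Exons of another gene, Gm20481, lie over 19% of the Hspa1a exons, and strand was not stated. Summed, the pair averaged 743.4 ± 139 normalized counts in DPP4_pos isoproterenol and 655.4 ± 63.2 in DPP4_pos vehicle libraries, against 412.7 ± 35 in DPP4_neg isoproterenol and 1273 ± 69.8 in DPP4_neg vehicle libraries. The log2 difference of the sum was −1.62 ± 0.09 in DPP4_neg APCs (adjusted p = 1.04e-12) and 0.17 ± 0.09 in DPP4_pos APCs (adjusted p = 0.0995). The responses of Hspa1b and Hspa1a differed between the populations by 1.84 ± 0.12 and 1.48 ± 0.20, the largest differences among the 35 genes. Per kilobase of exon, Hspa8 averaged 8412 normalized counts in DPP4_pos isoproterenol libraries, against 191 for Hspa1b and 70.2 for Hspa1a.

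**Figure D2:**
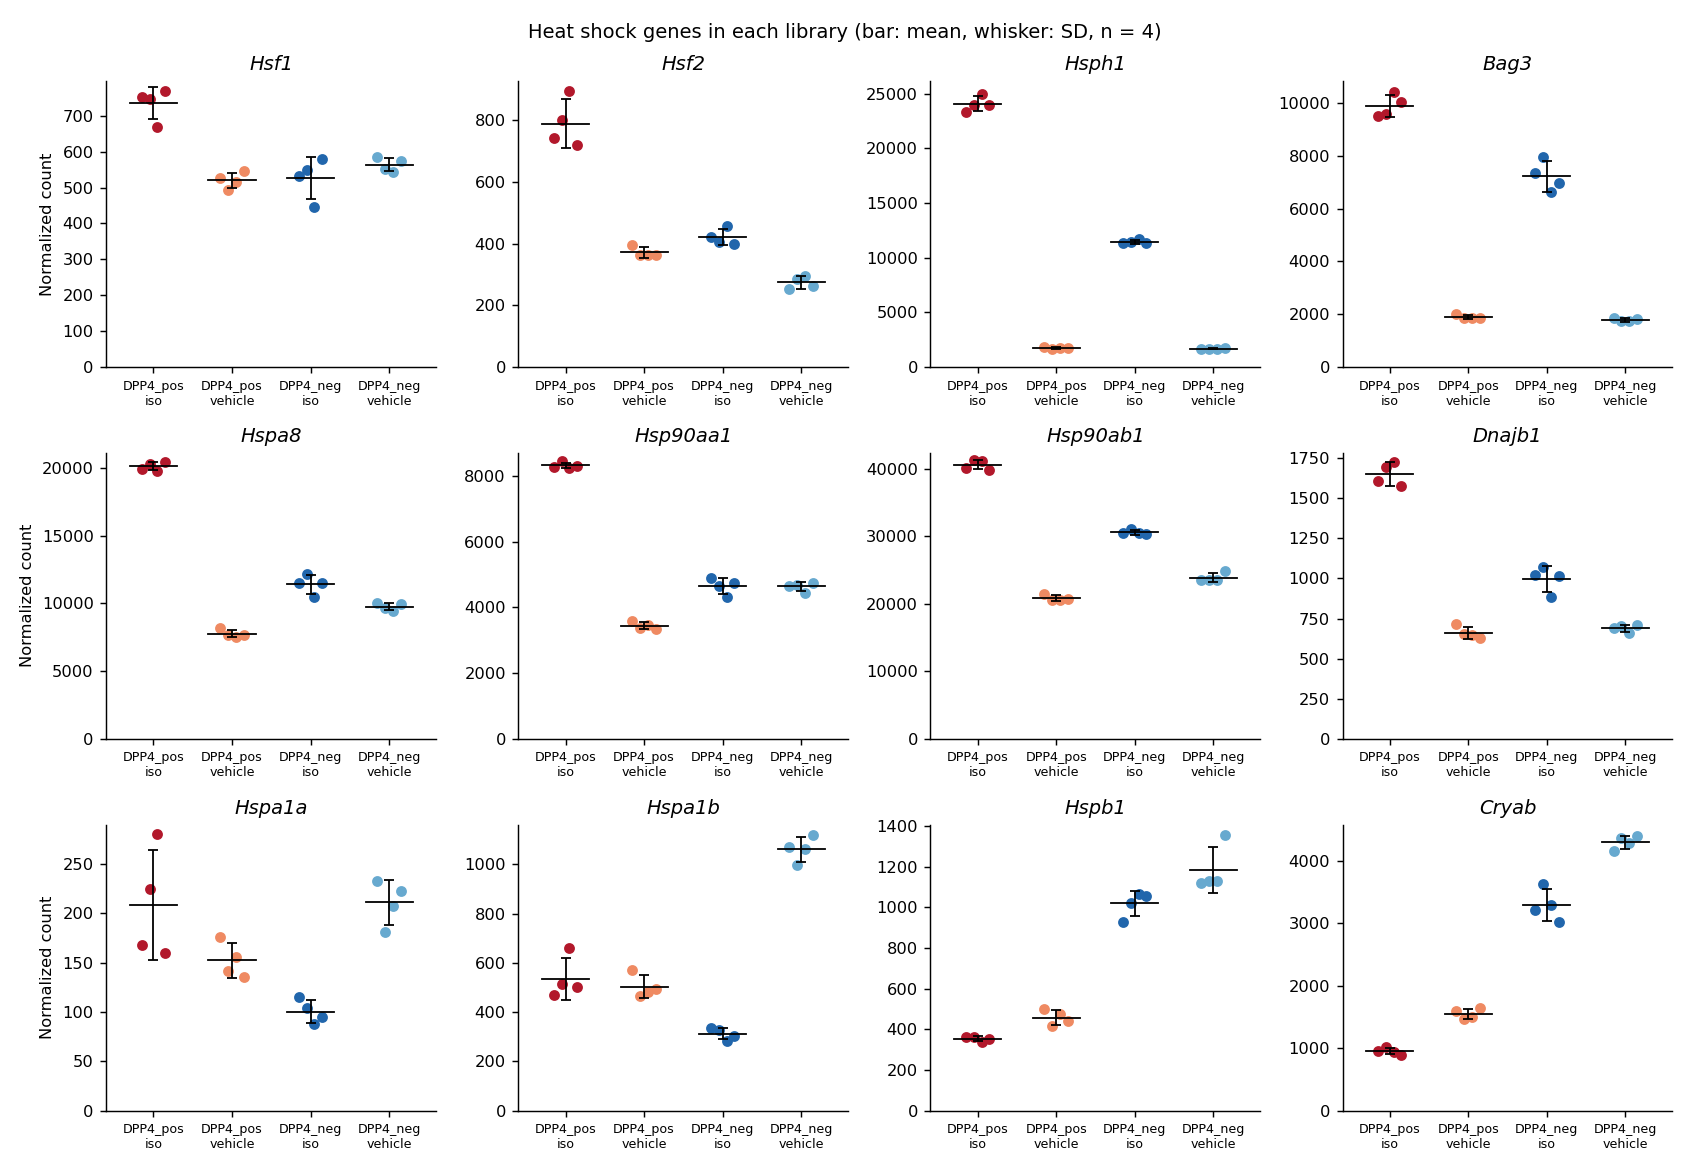
Normalized count (y axis) of 12 genes of the set in each of the 16 libraries, by group, with DPP4_pos before DPP4_neg and isoproterenol before vehicle; points are libraries, and lines and whiskers give the mean and SD of 4. Hsph1 and Bag3 are high in both isoproterenol groups, Hspa1b is highest in DPP4_neg vehicle libraries at 1061 ± 50.1, and Hspb1 and Cryab are lower in DPP4_pos than in DPP4_neg libraries.

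J-domain proteins bring clients to HSP70 and start its cycle. Dnajb1 (chromosome 8, 83608175 to 83612653), the stress-inducible HSP40, had 1608, 1699, 1729 and 1575 normalized counts in DPP4_pos isoproterenol libraries, against 715, 656, 650.1 and 626 in DPP4_pos vehicle libraries. In DPP4_neg APCs Dnajb1 had 1019, 1069, 882 and 1016 under isoproterenol, against 689, 702, 659.7 and 708 under vehicle. The vehicle libraries of both populations lay at like levels, below every treated library. It rose 2.5-fold in DPP4_pos APCs (log2 difference 1.32 ± 0.05, adjusted p = 1.18e-15) and 1.44-fold in DPP4_neg APCs (0.53 ± 0.05, adjusted p = 2.05e-08). Dnajb4 (chromosome 3, 152181580 to 152210432), a close relative of Dnajb1, had 2752, 2965, 3113 and 2787 normalized counts in DPP4_pos isoproterenol libraries, against 1617, 1564, 1561 and 1516 in DPP4_pos vehicle libraries. It had 2098, 2175, 2235 and 1964 in DPP4_neg isoproterenol and 3030.3, 3189.6, 3323 and 3091 in DPP4_neg vehicle libraries. The treated libraries lay above the vehicle libraries in DPP4_pos APCs and below them in DPP4_neg APCs. Dnajb4 rose 1.85-fold in DPP4_pos APCs and was 1.49-fold lower with isoproterenol in DPP4_neg APCs, and the responses differed by 1.47 ± 0.06 on the log2 scale (adjusted p = 2.5e-14). Dnaja1, a J-domain partner of HSC70, rose by 0.40 ± 0.03 in DPP4_pos and by 0.11 ± 0.03 in DPP4_neg APCs, and neither rise passed after quantile normalization. The Dnaja1 responses differed by 0.29 ± 0.05, and this did not pass with quantile (0.020) or total-count scaling (0.030). Exons of other genes lie over 11.8% of the Dnaja1 exons, and 11.9% of its 50-base words also occur in other transcripts. Hspa4, Hspa1a and Dnajb4 were the 3 genes of the set that rose in DPP4_pos and fell in DPP4_neg APCs.

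Hsp90aa1 and Hsp90ab1 make the cytosolic HSP90 proteins. Hsp90aa1 (chromosome 12, 110691036 to 110696395), the inducible form, had 8279.5, 8446, 8245 and 8296 normalized counts in DPP4_pos isoproterenol libraries, against 3581, 3356, 3466 and 3349.8 in DPP4_pos vehicle libraries. In DPP4_neg APCs Hsp90aa1 had 4889, 4649.5, 4319 and 4732 under isoproterenol, against 4659.8, 4679, 4448 and 4753 under vehicle. It rose 2.42-fold in DPP4_pos APCs (log2 difference 1.27 ± 0.04, adjusted p = 1.7e-18), where the groups did not overlap. In DPP4_neg APCs the difference was 0.00 ± 0.04 (adjusted p = 0.953), with overlapping groups, and after quantile normalization it was −0.088 and counted as a fall. The responses differed by 1.27 ± 0.05 (adjusted p = 9.74e-15). Hsp90ab1 (chromosome 17, 45567778 to 45573261), the constitutive form, had 40191, 41265, 41197 and 39896 normalized counts in DPP4_pos isoproterenol libraries, against 21466, 20506, 20591 and 20682 in DPP4_pos vehicle libraries. It had 30449, 31069, 30501 and 30309.9 in DPP4_neg isoproterenol and 23476, 23486, 23553 and 24866 in DPP4_neg vehicle libraries. Hsp90ab1 rose in both populations, by 0.97 ± 0.03 in DPP4_pos and 0.36 ± 0.03 in DPP4_neg APCs. By normalized counts not divided by exon length, it stood at place 35 among all genes tested in DPP4_pos isoproterenol libraries. Per kilobase of exon it averaged 16126 normalized counts there, against 2459.9 for Hsp90aa1. Of the 50-base words of Hsp90aa1, 47.5% also occur in other transcripts, mainly of Gm12346, and of those of Hspa8, 38.6%, mainly of Gm15459, so their reads may be split.

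All 6 co-chaperones of HSP90 in the set passed as rises in DPP4_pos APCs, Cdc37 with a direction that depended on the scaling. Ptges3, which makes p23 and holds HSP90 closed on its client, rose by 1.14 ± 0.05 in DPP4_pos and 0.53 ± 0.05 in DPP4_neg APCs. Of the 50-base words of Ptges3, 19.6% also occur in other transcripts. Chordc1, whose window carries the run of elements shown above, averaged 1973 ± 70.5 normalized counts in DPP4_pos isoproterenol and 1000.4 ± 54.2 in DPP4_pos vehicle libraries, against 1452 ± 97.5 in DPP4_neg isoproterenol and 1071 ± 34 in DPP4_neg vehicle libraries. Chordc1 rose by 0.98 ± 0.05 in DPP4_pos and 0.44 ± 0.05 in DPP4_neg APCs. Ahsa1, the activator of the HSP90 ATPase, rose by 0.97 ± 0.04 and 0.39 ± 0.04. Stip1, which passes clients between HSP70 and HSP90, rose by 0.84 ± 0.04 in DPP4_pos APCs, and Fkbp4, an immunophilin of steroid receptor complexes, by 0.52 ± 0.04. Their differences in DPP4_neg APCs, 0.09 ± 0.04 and 0.10 ± 0.04, were near the threshold (adjusted p = 0.0312 and 0.0483). With upper-quartile scaling neither passed. Cdc37, which brings kinases to HSP90, had a log2 difference of 0.09 ± 0.04 in DPP4_pos APCs (adjusted p = 0.0336) and −0.02 ± 0.04 in DPP4_neg APCs (adjusted p = 0.597). In DPP4_pos APCs Cdc37 turned to a fall with quantile (−0.24), upper-quartile (−0.10) and total-count scaling (−0.18).

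Small heat shock proteins hold unfolding proteins without using ATP, and here they split. Bag3 (chromosome 7, 128523583 to 128546981), a co-chaperone that joins HSP70 to HSPB8 in selective autophagy, had 9493, 9577, 10393 and 10033 normalized counts in DPP4_pos isoproterenol libraries, against 1991, 1844, 1836 and 1867 in DPP4_pos vehicle libraries. In DPP4_neg APCs Bag3 had 7333, 7963, 6624 and 6951 under isoproterenol, against 1846, 1723, 1734 and 1823 under vehicle. No treated library overlapped a vehicle one, and Bag3 rose 5.24-fold in DPP4_pos (2.39 ± 0.05, adjusted p = 2.87e-21) and 4.04-fold in DPP4_neg APCs (2.02 ± 0.05, adjusted p = 1.27e-19). Hspb8 (chromosome 5, 116408491 to 116422864), its partner, had 3231, 3464, 3534 and 3459 normalized counts in DPP4_pos isoproterenol libraries, against 1514, 1531, 1576 and 1643 in DPP4_pos vehicle libraries. It had 2361, 2493, 2477 and 2424 in DPP4_neg isoproterenol and 1530.4, 1541, 1568 and 1507 in DPP4_neg vehicle libraries. Hspb8 rose by 1.13 ± 0.04 in DPP4_pos and by 0.67 ± 0.04 in DPP4_neg APCs. The Bag3 responses differed by 0.37 ± 0.07, which did not pass with quantile normalization (0.08) or total-count scaling (0.11).

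Hspb1 and Cryab went the other way. Hspb1 (chromosome 5, 135887919 to 135889563), an actin-protecting small heat shock protein, had 364, 364, 339 and 349.5 normalized counts in DPP4_pos isoproterenol libraries, against 497, 414, 475 and 438 in DPP4_pos vehicle libraries. In DPP4_neg APCs Hspb1 had 929.7, 1022, 1066 and 1055 under isoproterenol, against 1121, 1128, 1127 and 1355 under vehicle. In both populations the treated libraries lay below the vehicle libraries. Hspb1 was lower with isoproterenol by log2 differences of −0.36 ± 0.07 in DPP4_pos (adjusted p = 3.2e-05) and −0.21 ± 0.07 in DPP4_neg APCs (adjusted p = 0.00703). Cryab (chromosome 9, 50745951 to 50756636), alpha-B crystallin, had 958, 1023, 943 and 891 normalized counts in DPP4_pos isoproterenol libraries, against 1588, 1458, 1491 and 1635 in DPP4_pos vehicle libraries. It had 3211, 3630.5, 3290.5 and 3009.7 in DPP4_neg isoproterenol and 4154, 4353, 4275 and 4393 in DPP4_neg vehicle libraries. The groups did not overlap. Cryab fell in both populations, with log2 differences of −0.69 ± 0.05 in DPP4_pos and −0.39 ± 0.05 in DPP4_neg APCs, and it was the 1 gene of the set whose response was more negative in DPP4_pos APCs (−0.30 ± 0.07, adjusted p = 0.000974). Of the 50-base words of Hspb1, 48.8% also occur in other transcripts, mainly of Hsp25-ps1, and the neighbouring gene Hspb2 lies over 19.5% of the Cryab exons. The summed level of mural cell markers, 8 of 8 found, was also lower in DPP4_pos than in DPP4_neg libraries. They summed to 7663 to 9250 normalized counts in DPP4_pos isoproterenol and 11829 to 13481 in DPP4_pos vehicle libraries, against 112604 to 121263 in DPP4_neg isoproterenol and 152751 to 168232 in DPP4_neg vehicle libraries. Most of the sum was Acta2 and Tagln, contractile genes that stromal cells in culture can make, at means of 3983 and 3186 in DPP4_pos isoproterenol and 6126 and 4635 in DPP4_pos vehicle libraries, against 68176 and 42092 in DPP4_neg isoproterenol and 99429 and 51643 in DPP4_neg vehicle libraries. Of the other mural markers, Abcc9 averaged 516 in DPP4_pos and 2685 in DPP4_neg isoproterenol libraries, and 399 and 2465 in vehicle libraries. Myh11 and Cspg4 also had lower means in DPP4_pos libraries under both agents, with overlapping isoproterenol libraries for Cspg4. The pericyte marker Notch3 ran the other way, at means of 386 in DPP4_pos and 303 in DPP4_neg isoproterenol libraries. In vehicle libraries Notch3 averaged 1053 in DPP4_pos and 798 in DPP4_neg APCs. Kcnj8 likewise had higher means in DPP4_pos libraries, 151 against 87.2 under isoproterenol and 16.9 against 12.3 under vehicle. The vehicle libraries had low Kcnj8 counts that overlapped between the populations, so no difference is shown under vehicle. The part of these markers in the Hspb1 and Cryab levels was not tested.

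Of the 35 genes, the mitochondrial chaperone genes Hspd1 and Hspa9 had the largest rises in DPP4_pos APCs after Hsph1 and Bag3. Hspd1 (chromosome 1, 55077833 to 55088243), which makes the HSP60 ring of the mitochondrial matrix, had 7789.7, 8222, 8046 and 7855 normalized counts in DPP4_pos isoproterenol libraries, against 2764, 2739, 2582 and 2609 in DPP4_pos vehicle libraries. In DPP4_neg APCs Hspd1 had 4558, 4352, 4852 and 4503 under isoproterenol, against 3341, 3474, 3215 and 3475 under vehicle. Hspd1 rose 2.98-fold in DPP4_pos (1.58 ± 0.04, adjusted p = 7.08e-20) and 1.35-fold in DPP4_neg APCs (0.44 ± 0.04, adjusted p = 1.13e-09). Hspe1, the HSP10 lid transcribed from the other side of the same promoter, rose by 1.05 ± 0.04 and 0.24 ± 0.04. Of the 50-base words of Hspd1, 39.7% also occur in other transcripts, mainly of Hspd1-ps3. For Hspe1 the share was 18.4%, so the reads of both genes may be split. Hspa9, the mitochondrial HSP70 that pulls proteins into the matrix, had 13309.8, 14034, 14237 and 13667 normalized counts in DPP4_pos isoproterenol libraries, against 4656, 4575, 4690.4 and 4625 in DPP4_pos vehicle libraries. It had 9091, 8975, 9237 and 9225 in DPP4_neg isoproterenol and 7151, 6857, 6650.4 and 7075 in DPP4_neg vehicle libraries. No treated library of Hspd1 or Hspa9 overlapped a vehicle library of its population. Hspa9 rose by 1.57 ± 0.03 in DPP4_pos and 0.40 ± 0.03 in DPP4_neg APCs, and these responses differed by 1.18 ± 0.04 (adjusted p = 2.56e-15). Mitochondrially encoded genes took 1.47% to 2.07% of the normalized counts over all libraries. The lowest was DPP4_neg isoproterenol replicate 3, which also had the low Ubb value given below. The next lowest was DPP4_pos vehicle replicate 1, at 1.71%.

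CCT, also called TRiC, is the chaperonin of the cytosol and folds actin and tubulin in a ring of 8 kinds of subunit. All 8 subunit genes rose in DPP4_pos APCs, with log2 differences of 0.63 for Tcp1 to 1.45 for Cct3. In DPP4_neg APCs 7 of the 8 rose, by 0.09 for Cct8 to 0.43 for Cct3, and Tcp1 had 0.06 ± 0.03 (adjusted p = 0.07). Cct8 in DPP4_neg APCs was near the threshold (adjusted p = 0.0462) and had −0.011 after quantile normalization. The response was larger in DPP4_pos APCs for all 8, by 0.57 for Tcp1 to 1.02 for Cct3. Cct3 (chromosome 3, 88297135 to 88321766) had 7895, 8337, 7831 and 8221 normalized counts in DPP4_pos isoproterenol libraries, against 3040.0, 2956, 2839 and 3013 in DPP4_pos vehicle libraries. In DPP4_neg APCs Cct3 had 5264, 5497, 5242 and 5168 under isoproterenol, against 3942, 3906, 3796 and 4115 under vehicle. Each treated Cct3 library was above each vehicle library of its population. Per kilobase of exon the subunits averaged 1743 (Tcp1) to 3548 (Cct3) normalized counts in DPP4_pos isoproterenol libraries, against 773 (Cct6a) to 1782 (Cct5) in DPP4_pos vehicle libraries. They averaged 1275 (Cct6a) to 2334 (Cct5) in DPP4_neg isoproterenol and 1050.5 (Cct6a) to 2103 (Cct5) in DPP4_neg vehicle libraries. Exons of neighbouring genes lie over 20.6% of the Tcp1, 18.4% of the Cct6a, 8.77% of the Cct7 and 8.01% of the Cct8 exons, so these levels may hold reads of the neighbours.

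**Figure D3:**
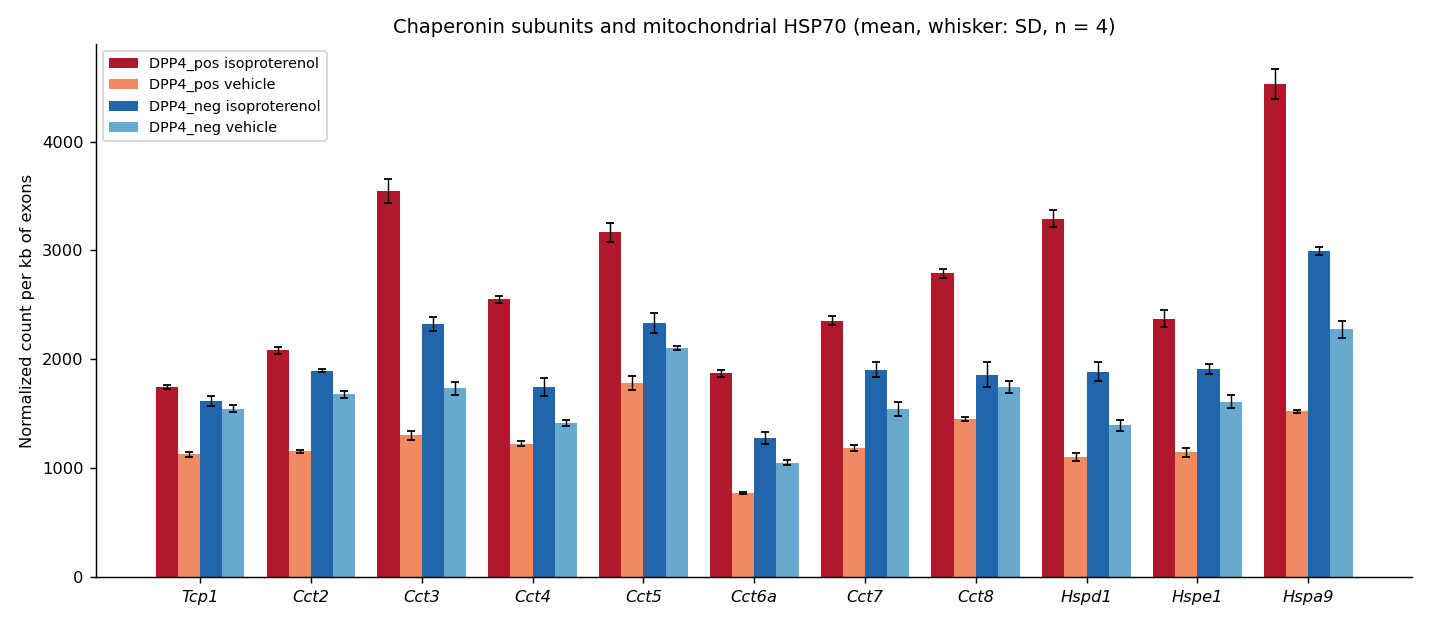
Mean normalized count per kilobase of exon (y axis, linear from 0) of the 8 CCT subunit genes and of the mitochondrial chaperone genes Hspd1, Hspe1 and Hspa9 in the 4 groups, with bars for the mean of 4 libraries and whiskers for the SD. Within each gene the DPP4_pos isoproterenol bar is the highest, for Cct3 at 3548, though for Tcp1 and Cct2 its order against DPP4_neg isoproterenol turns under other scalings.

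Ubb, a polyubiquitin gene that stressed cells use to restore ubiquitin, was the 1 gene of the set that passed in neither population. It averaged 2349 ± 69.8 normalized counts in DPP4_pos isoproterenol and 2046 ± 109.7 in DPP4_pos vehicle libraries, against 1939.9 ± 437 in DPP4_neg isoproterenol and 1825 ± 89.8 in DPP4_neg vehicle libraries. The wide spread in DPP4_neg isoproterenol came from replicate 3, at 1286 where the others had 2137 to 2197. Without it, Ubb rose by 0.24 in DPP4_neg APCs (adjusted p = 7.15e-05), by 0.20 in DPP4_pos APCs (adjusted p = 0.000147) and was 0.16 higher in DPP4_pos than in DPP4_neg vehicle libraries (adjusted p = 0.00142). Of its 50-base words, 48.1% also occur in other transcripts.

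The populations were then compared under each agent. With vehicle, 2 of the 35 genes, Hsf2 and Dnaja1, were higher in DPP4_pos than in DPP4_neg APCs and 23 were lower, where 31.6% of all genes were higher and 35% lower. The genes that were higher numbered 5 with total-count scaling and 4 with only the groups compared in the fit. The median log2 difference was −0.27 over the 35 genes and −0.01 over all. The largest were Cryab at −1.48 ± 0.05, Hspb1 at −1.37 ± 0.07, Hspa1b at −1.08 ± 0.09, Dnajb4 at −1.01 ± 0.04 and Hspa4l at −0.60 ± 0.11. All 8 CCT genes and all 3 mitochondrial chaperones were lower in DPP4_pos vehicle libraries, with log2 differences of −0.21 for Cct4 to −0.58 for Hspa9. With isoproterenol, 31 of the 35 were higher in DPP4_pos APCs and 4 were lower, where 37.4% of all genes were higher and 37% lower. The median was then 0.49 over the 35 genes and −0.00 over all. The 4 that stayed lower were Cryab (−1.78 ± 0.05), Hspb1 (−1.52 ± 0.07), Hspa4l (−0.46 ± 0.11) and Cdc37 (−0.12 ± 0.04). The highest were Hsph1 (1.07 ± 0.04, adjusted p = 5.36e-17), Hspa1a (1.01 ± 0.14) and Hsf2 (0.90 ± 0.07). Tcp1 and Cct2, at 0.11 ± 0.03 and 0.13 ± 0.03, turned negative with quantile (−0.15 and −0.10), upper-quartile (−0.041 and −0.015) and total-count scaling (−0.088 and −0.062). Hsp90ab1, Cct7 and Ubb no longer passed there after quantile normalization. The comparisons of a population share its libraries with the response of that population, so they are not separate evidence. With total-count scaling 28 of the 35 were higher and 5 lower with isoproterenol, where 26.2% of all genes were higher and 50% lower.

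**Figure D4:**
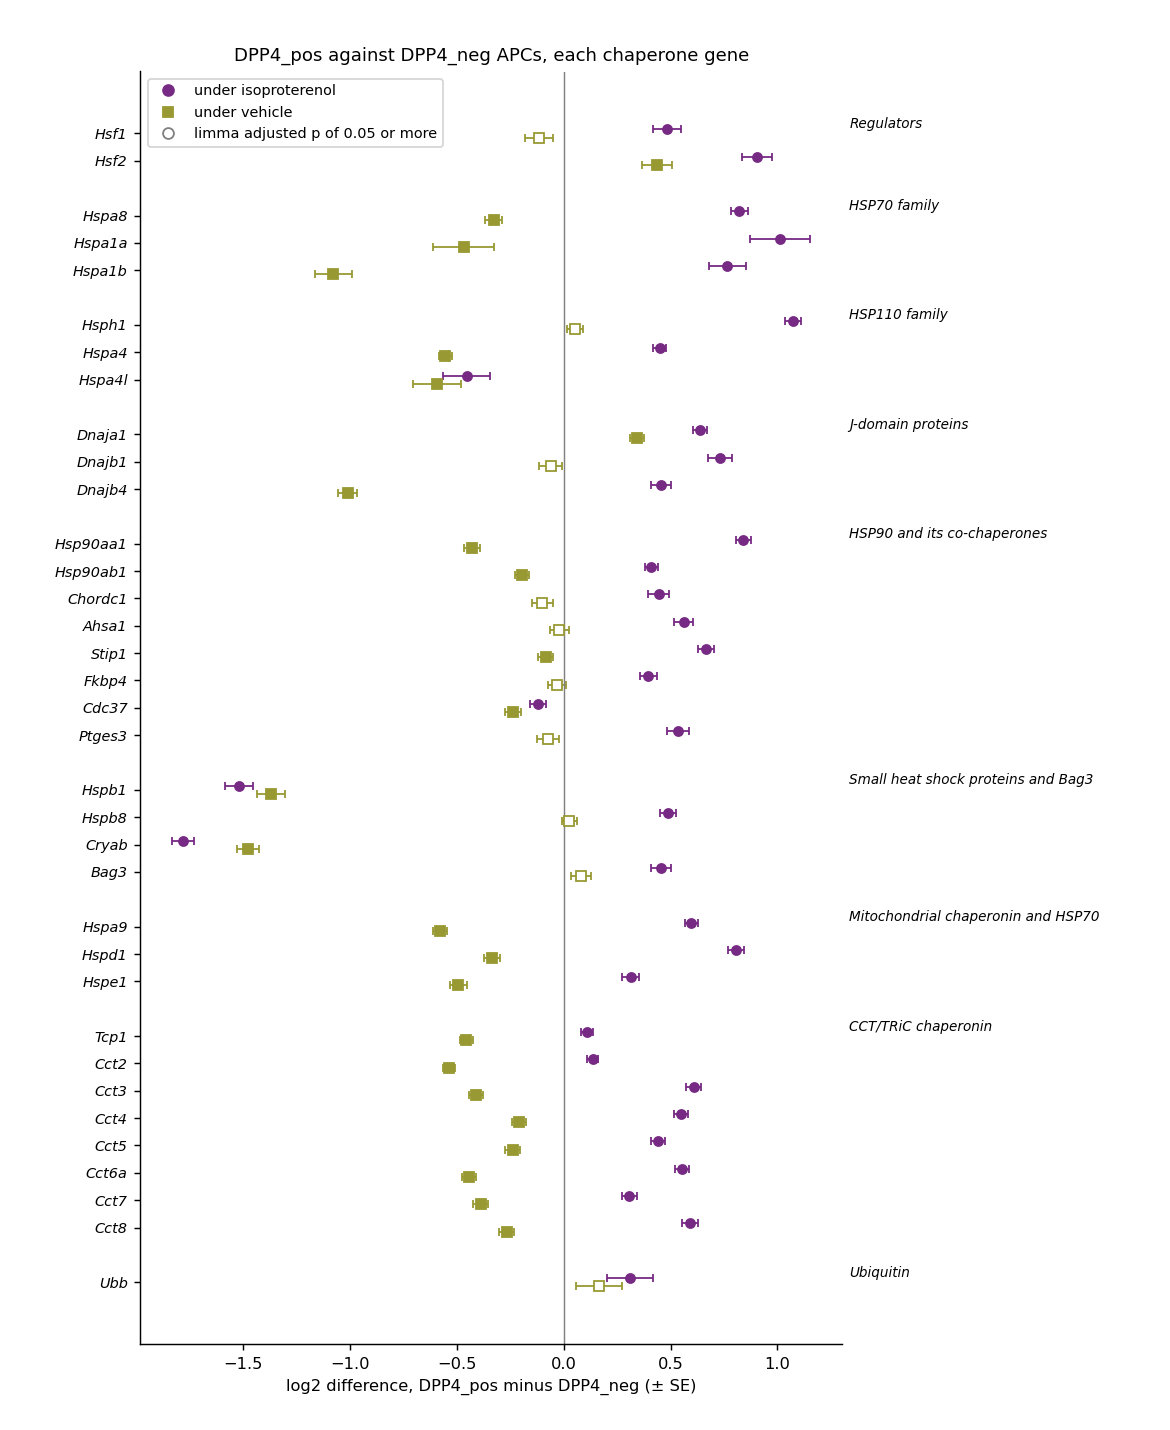
Log2 difference between DPP4_pos and DPP4_neg APCs for each of the 35 genes (x axis), one row per gene, under isoproterenol and under vehicle, with bars of 1 SE from limma and open symbols where the adjusted p was 0.05 or more. Most genes lie right of 0 with isoproterenol and left of 0 with vehicle, with medians of 0.49 and −0.27, while Cryab lies at −1.78 and −1.48.

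Macrophage and leukocyte markers, 11 of 11 found, summed to 627 to 1364 normalized counts in DPP4_pos isoproterenol and 553 to 991 in DPP4_pos vehicle libraries, against 745 to 1779 in DPP4_neg isoproterenol and 432 to 954 in DPP4_neg vehicle libraries. Within this list, Csf1r averaged 693 in DPP4_neg isoproterenol and 175 in DPP4_neg vehicle libraries, and 251 and 148 in DPP4_pos libraries. For every other marker of the list, treated and vehicle DPP4_neg libraries overlapped, though all means were higher with isoproterenol. The leukocyte gene Ptprc had means of at most 13.7 in any group. The mesothelial marker Msln and the adipocyte marker Lep were at or near 0 in every group, with means of at most 0.445 and 0.881. Adipocyte markers, 4 of 4, summed to 3616 to 4295 in DPP4_pos isoproterenol and 10647 to 11992 in DPP4_pos vehicle libraries, against 11072 to 13258 in DPP4_neg isoproterenol and 28580 to 33023 in DPP4_neg vehicle libraries. Endothelial markers (9 of 9) summed to 1182 to 1320, 1115 to 1178, 172 to 223 and 166 to 206 in the same group order, and mesothelial markers (4 of 4) to 122 to 179, 89.5 to 135, 1224 to 1714 and 620 to 776. Within the endothelial list, Kdr averaged 684 in DPP4_pos isoproterenol and 39.9 in DPP4_pos vehicle libraries, against 121 in DPP4_neg isoproterenol and 13.7 in DPP4_neg vehicle libraries. With isoproterenol Tek moved opposite to Kdr, from 1013 under vehicle to 410.2 in DPP4_pos and from 140.3 to 35.3 in DPP4_neg libraries. Between the populations, Kdr and Tek both had higher means in DPP4_pos libraries under each agent, as had Pecam1 and Cdh5. Tie1, Emcn, Erg and Cldn5 also had higher means there at low counts, with overlapping libraries for Emcn and, under vehicle, for Erg. Vwf had lower means in DPP4_pos libraries, 3.09 against 3.38 under isoproterenol and 9.37 against 10.0 under vehicle. These Vwf counts were low and overlapped between the populations, so no difference is shown. The mesothelial sum was nearly all Krt19. Their part in the chaperone responses was not tested.

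Among 59 further chaperone genes listed from general knowledge, 56 were tested. In DPP4_pos APCs 32 of the 56 rose and 18 fell, and in DPP4_neg APCs 24 rose and 14 fell. Of all genes tested, 39.4% rose and 43.3% fell in DPP4_pos APCs, and 32.1% rose and 33.6% fell in DPP4_neg APCs. The median log2 difference of the 56 was 0.21 in DPP4_pos and 0.07 in DPP4_neg APCs, against −0.05 and −0.02 over all genes. Dnaja2, a J-domain protein close to Dnaja1, averaged 7954 normalized counts in DPP4_pos isoproterenol and 3135 in DPP4_pos vehicle libraries, against 4912 in DPP4_neg isoproterenol and 2988 in DPP4_neg vehicle libraries, and rose by 1.34 ± 0.04 and 0.72 ± 0.04. Hspa2, an HSP70 best known from the testis, rose by 1.69 ± 0.06 in DPP4_pos and 0.66 ± 0.06 in DPP4_neg APCs. Dnajc2, a ribosome-bound J-domain protein, rose by 1.36 ± 0.05 in DPP4_pos APCs, and Ppid, an HSP90-binding cyclophilin, by 0.63 ± 0.04 in DPP4_neg APCs. The falls were led by small heat shock proteins best known from muscle. Hspb7 averaged 202 normalized counts in DPP4_pos isoproterenol and 923 in DPP4_pos vehicle libraries, against 743 in DPP4_neg isoproterenol and 1899 in DPP4_neg vehicle libraries, with log2 differences of −2.19 ± 0.07 and −1.35 ± 0.07. Hspb2, which overlaps Cryab, had differences of −2.70 ± 0.20 in DPP4_pos and −1.06 ± 0.20 in DPP4_neg APCs. Hspa12b, a distant HSP70 relative known from endothelium, had a log2 difference of −1.92 ± 0.15 in DPP4_pos APCs, and Bag2, a nucleotide exchange factor of HSP70, had −0.81 ± 0.09 in DPP4_neg APCs.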

How the data were processed

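RNA was sequenced from 16 libraries of 500 ng total RNA each. Per the submitters' processing notes, which list builds GRCm38 and mm10, the tools were DESeq2 1.6.3, featureCounts 1.4.6, HISAT2 2.0.1 and Trim Galore 0.4.1. Order, settings, annotation and strand are not given in the sources used. The values deposited by the authors are a size-factor normalized signal, one per gene and library. In each library they were whole multiples of a fixed step, and within 0.001 all 280334 values above 0 (100%) came out as whole reads when divided by it. The 958 rows without a symbol passed through the same filter.

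Genes with a normalized count of at least 10 in at least 4 libraries were tested with limma 3.58.1 in R 4.3.3, with a mean-variance trend, on log2(normalized count + 1). All 16 libraries entered 1 fit of 4 group means, and 5 contrasts were adjusted by Benjamini-Hochberg over 14005 genes. This scale understates changes of low genes. Differences are given ± SE and levels as mean ± SD. The scripts were tested on simulated data. edgeR 4.0.16 and DESeq2 1.42.0 were run on the recovered reads as alternatives, beside other pseudocounts (0.5 and 8), filters, scalings, a replicate block and leaving out each library. With edgeR, 5266 genes rose and 6315 fell in DPP4_pos APCs, and 4709 rose and 4834 fell in DPP4_neg APCs.

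The genes and lists were chosen with earlier results of these data known. Values in every library are given for a set list of 12 genes (Hsf1, Hsf2, Hspa1a, Hspa1b, Hspa8, Hsp90aa1, Hsp90ab1, Hsph1, Dnajb1, Hspb1, Cryab, Bag3) and for the 5 with the largest called differences per comparison at a mean of at least 50 normalized counts. From the further chaperone list the 3 largest called rises and falls per population are named, at the same mean level or above. Exon lengths, overlaps and 50-base words come from the GENCODE M21 annotation and transcripts of GRCm38, and promoter windows from RefSeq. Library pairs within groups correlated at r = 0.986 to 0.995 across genes and differed beyond counting noise.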

Additional observations from a re-analysis of the deposited data

Results flagged for a closer look

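In 13 of 140 groups of 4 libraries, 1 library of a gene lay far from the other 3, with a gap to its nearest neighbour above Dixon's critical share of the group's range. Chance alone flags about 1 in 20 groups. The values that stood apart, in normalized counts, were Hsf2 in DPP4_pos vehicle replicate 1 (396, others 362 to 363), Hsp90ab1 in DPP4_neg vehicle replicate 4 (24866, others 23476 to 23553), Hspa4l in DPP4_neg isoproterenol replicate 2 (153, others 215 to 221) and Hspb1 in DPP4_neg vehicle replicate 4 (1355, others 1121 to 1128). Further ones were Chordc1 in DPP4_neg vehicle replicate 3 (1021, others 1083 to 1094), Fkbp4 in DPP4_neg isoproterenol replicate 1 (1566, others 1551 to 1553), Fkbp4 in DPP4_neg vehicle replicate 4 (1581, others 1406 to 1431) and Fkbp4 in DPP4_pos isoproterenol replicate 2 (2153, others 2002 to 2026). Others were Ubb in DPP4_neg isoproterenol replicate 3 (1286, others 2137 to 2197), Tcp1 in DPP4_neg isoproterenol replicate 3 (4833, others 4529 to 4570.4), Cct2 in DPP4_neg isoproterenol replicate 1 (3930.1, others 3876 to 3881) and Cct6a in DPP4_pos vehicle replicate 4 (1856, others 1906 to 1914). The last was Cct7 in DPP4_neg vehicle replicate 4 (4011, others 3682 to 3715). DPP4_neg vehicle replicate 4 was the high library for Hsp90ab1, Hspb1, Fkbp4 and Cct7.

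The responses to isoproterenol differed between the populations for 31 of the 35 genes, by limma's test of the difference itself at an adjusted p under 0.05. Over all genes tested, the signed response was higher in DPP4_pos APCs for 31.6% and lower for 31%. With total-count scaling it was higher for 27 of the 35 and lower for 3. The log2 difference, DPP4_pos response minus DPP4_neg response, was positive for 30. Among them, Hspa1b (1.84), Hspa1a (1.48), Dnajb4 (1.47), Hsp90aa1 (1.27), Hspa9 (1.18), Hspa8 (1.15), Hspd1 (1.14), Hsph1 (1.02), Cct3 (1.02) and Hspa4 (1.003) had the largest. Next in order were Cct6a (0.997), Cct8 (0.86), Hspe1 (0.81), Dnajb1 (0.79), Cct4 (0.76), Stip1 (0.75), Cct7 (0.70), Cct5 (0.68), Cct2 (0.67) and Ptges3 (0.61). The smallest were Hsp90ab1 (0.61), Hsf1 (0.60), Ahsa1 (0.58), Tcp1 (0.57), Chordc1 (0.54), Hsf2 (0.47), Hspb8 (0.46), Fkbp4 (0.43), Bag3 (0.37) and Dnaja1 (0.29). It was negative for Cryab (−0.30).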

How the results depend on the processing

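Of 278 recomputed counts of rises or falls among the 35 genes, 271 stayed within 1.5 times the reported count, and of 4855 values of single genes 4738 kept direction and call. With total-count scaling, 5 genes in place of 3 fell in DPP4_pos APCs, and 5 in place of 2 were higher in DPP4_pos vehicle libraries. The signed response was then lower in DPP4_pos APCs for 3 in place of 1. These lower responses numbered 2 after quantile normalization and 2 after upper-quartile scaling. With single libraries left out they numbered 1 to 2, with 2 without DPP4_neg vehicle replicate 4. With only the groups compared in the fit, 4 genes were higher in DPP4_pos vehicle libraries. Directions turned, where either value passed the threshold, for Hsp90aa1 (−0.088) and Cct8 (−0.011) in DPP4_neg APCs after quantile normalization, for Hspa1b in DPP4_pos APCs with total-count scaling (−0.19), and for Cdc37 in DPP4_pos APCs with quantile (−0.24), upper-quartile (−0.10) and total-count scaling (−0.18). The Cdc37 difference of responses turned with quantile (−0.14) and total-count scaling (−0.15). In the isoproterenol libraries, DPP4_pos minus DPP4_neg, Tcp1 had −0.15, −0.041 and −0.088 and Cct2 had −0.098, −0.015 and −0.062 with quantile, upper-quartile and total-count scaling. The cause was not tested.

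Over all genes, total-count scaling moved the median by −0.27 in the DPP4_pos response, −0.26 in the difference of responses and −0.20 between isoproterenol groups, and upper-quartile scaling by −0.19, −0.17 and −0.15. Higher and lower signed responses in DPP4_pos APCs numbered 4423 and 4342 in the reported fit. They then numbered 2557 and 6828 with total-count and 3154 and 5903 with upper-quartile scaling. Upper-quartile scaling gave 4340 rises and 7271 falls in DPP4_pos APCs, in place of 5517 and 6064, and 4039 higher and 6547 lower genes between isoproterenol groups, in place of 5237 and 5181. With a replicate block, 22 in place of 23 genes rose in DPP4_neg APCs, since Fkbp4 no longer passed, and no other count of the 35 changed. Same-numbered libraries of different groups correlated at r = −0.24 to 0.21 (median 0.043) in their deviations from group means. Differently numbered ones had −0.19 to 0.25 (median −0.022), and 7 of 16 libraries were closest to their own number. The ranges overlap and the labels state no pairing, so whether the numbers pair the libraries could not be settled. Calls in DPP4_neg APCs were lost for Stip1 when any of 4 single libraries was left out, for Fkbp4 with any of 12 and for Cct8 with any of 13, as were Cdc37 in DPP4_pos APCs with any of 5 and Stip1 between vehicle groups with any of 7. Calls were gained by Tcp1 in DPP4_neg APCs (0.075) and by the Hspb1 difference of responses (−0.21) without DPP4_neg vehicle replicate 4, by the Cdc37 difference of responses (0.15) without DPP4_neg isoproterenol replicate 2 and, between vehicle groups, by Hsf1 (−0.12) without DPP4_neg isoproterenol replicate 3 and by Chordc1 when any of 3 libraries was left out (−0.12 to −0.10). Leaving out single libraries gave 20 to 24 rises in DPP4_neg and 29 to 31 in DPP4_pos APCs. The shallowest library had 9823799 reads in genes, and the lowest of the 35 genes, Hspa1a, had 88.3 normalized counts in its lowest library.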

Other observations

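Unc45b, a chaperone of muscle myosin on the further list, was chosen after its values were seen, because its levels differed most between the populations on that list. It averaged 859.5 normalized counts in DPP4_pos isoproterenol and 758.7 in DPP4_pos vehicle libraries, against 55.9 in DPP4_neg isoproterenol and 54.0 in DPP4_neg vehicle libraries. The log2 difference between DPP4_pos and DPP4_neg APCs was 3.93 ± 0.12 with isoproterenol and 3.81 ± 0.12 with vehicle (limma adjusted p = 9.97e-18 and 1.89e-17). Isoproterenol against vehicle gave 0.18 ± 0.12 in DPP4_pos and 0.06 ± 0.12 in DPP4_neg APCs, which did not pass (adjusted p = 0.168 and 0.681). Hspb2, a small heat shock protein gene on that list, had −3.06 ± 0.20 under isoproterenol and −1.42 ± 0.20 under vehicle in the same comparison of the populations.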
